A study of Homo sapiens with 12 samples.

Results

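Mature microRNAs linked to red-cell development were followed in K562 cells: hsa-miR-451a, the 2 strands hsa-miR-144-5p and hsa-miR-144-3p, the 2 strands hsa-miR-486-5p and hsa-miR-486-3p, and hsa-miR-210-3p. They were chosen by name, and all 6 were measured in both comparisons, out of 952 microRNAs measured in either. K562 is a human erythroleukaemia line that keeps features of red-cell and platelet precursors. The series compared 4 groups of 3 small-RNA libraries in 2 pairs. Cells carrying a non-targeting guide RNA (sgNT) were set against cells carrying a guide to CYRANO, a long non-coding RNA (sgCYRANO), and the wild-type line (WT), which received no guide, against a ZSWIM8-/- line (ZSWIM8 KO), also labelled as having received none. All groups were grown in the same serum-containing medium. The sources used here do not say whether the ZSWIM8 KO line is 1 clone. CYRANO and ZSWIM8 act in target-directed microRNA decay, in which a target RNA that pairs extensively with a microRNA causes the loss of that microRNA.

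As background, miR-144 and miR-451a are cut from 1 primary transcript that the erythroid factor GATA1 activates, and both are among the best known markers of red-cell maturation. MiR-451a is unusual because its short hairpin bypasses Dicer and is cut by the slicing protein AGO2 instead, so it has 1 mature strand where most hairpins have a pair. MiR-486 lies within ANK1, the gene of the red-cell membrane skeleton protein ankyrin. MiR-210-3p is the main microRNA induced by the hypoxia factor HIF-1, and it represses the iron-sulphur scaffold protein ISCU.

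Of the 6 names, 3 matched the RefSeq table of microRNA sequences (GRCh38.p14). They are shown with the seed, bases 2 to 8 counted from the 5′ end, in capitals, since the seed decides most targeting. The strand miR-101-3p is added because it was the 1 other measured microRNA that shares bases 2 to 7 with miR-144-3p, and miR-147b-3p because it was the 1 that shares bases 2 to 7 with miR-210-3p.
miR-144-5p: gGAUAUCAucauauacuguaag
miR-144-3p: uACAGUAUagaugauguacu
miR-101-3p: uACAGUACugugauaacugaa
miR-210-3p: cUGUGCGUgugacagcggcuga
miR-147b-3p: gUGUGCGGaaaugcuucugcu
No other microRNA in that sequence table shares all of bases 2 to 8 with miR-144-5p, miR-144-3p or miR-210-3p. The hairpin of miR-144 is shown with its 5p and then its 3p strand in capitals, because both strands were measured.
MIR144: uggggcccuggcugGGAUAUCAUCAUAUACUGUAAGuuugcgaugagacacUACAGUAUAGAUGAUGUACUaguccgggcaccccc

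The hairpin MIR144 lies at chr17:28861533-28861618 on the - strand of GRCh38, with MIR451A 92 bases downstream of it, at chr17:28861369-28861440 on the same strand. MIR4732 lies 36 bases upstream, at chr17:28861655-28861730. In GENCODE 29 these hairpins lie in an exon of the long non-coding RNA gene AC024267.1, and MIR451A is overlapped on the + strand by MIR451B. MIR210 lies at chr11:568089-568198 on the - strand, in an intron of its host gene MIR210HG. The miR-486 strands are annotated to MIR486-1 and MIR486-2, which overlap on opposite strands in an intron of ANK1. The sources used here do not say how reads shared by those overlapping hairpins were assigned, so the origin of the miR-486 strands is uncertain. The submitters' processing notes name the build hg19, and positions here are those of GRCh38.

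The data came as 1 table per pair of groups of the authors' own edgeR comparisons, with no value for a single library. Group means in counts per 1000000 reads (CPM) were recovered from the deposited columns, and fold changes were read as the second group of each table over the first, since the headers give no direction. Read this way, miR-7-5p, the known decay substrate of CYRANO, was higher in sgCYRANO (5.72-fold) and in ZSWIM8 KO (5.09-fold) in the authors' deposited tables. Library totals read from the steps between the smallest values ranged from 1540000 to 2300000 reads in sgNT and from 1670000 to 1850000 in sgCYRANO. They ranged from 860000 to 1850000 reads in WT and from 2090000 to 2490000 in ZSWIM8 KO. Errors after ± are standard errors of a log2 fold change implied by the deposited p, and p-values are those of edgeR's quasi-likelihood test with Benjamini-Hochberg adjustment over the whole table. RNA came from biological triplicates of each line, per the depositors, so p-values refer to samples of 1 line per group. The variance behind many of them was mostly borrowed from other microRNAs. The degrees of freedom that F and p imply were most often 3348 with sgCYRANO and 164.1 with ZSWIM8 KO, where 6 libraries leave 4.

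The levels differed widely among the 6 strands. MiR-486-5p had group means of 11701 CPM in sgNT and 12031 in sgCYRANO, and 14449 CPM in WT and 13387 in ZSWIM8 KO, rank 15 by mean level in both tables. Between 83.7% and 86.9% of the CPM of the 6 strands belonged to this strand in each group, and the 6 together held 1.36% of all CPM in sgNT and 1.39% in sgCYRANO, with 1.66% in WT and 1.60% in ZSWIM8 KO. MiR-451a had 774.9 CPM in sgNT and 848.7 in sgCYRANO, and 574.5 CPM in WT and 956.3 in ZSWIM8 KO. MiR-486-3p, the less abundant strand of its hairpin, had 482.4, 478.3, 747.7 and 567.4 CPM in the same order of groups. Its WT mean was the highest of the 4.

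MiR-210-3p had 321.0 CPM in sgNT and 240.4 in sgCYRANO, and 373.5 CPM in WT and 357.3 in ZSWIM8 KO, so sgCYRANO had its lowest mean. MiR-144-5p had 230.4, 245.0, 360.1 and 492.4 CPM, and miR-144-3p 101.6, 93.4, 119.4 and 239.1 CPM, in the same order of groups. Both miR-144 strands had their highest mean in ZSWIM8 KO. Means were scaled within each library, and the tables were fitted separately, so no test was made between sgNT and WT.

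**Figure D1:**
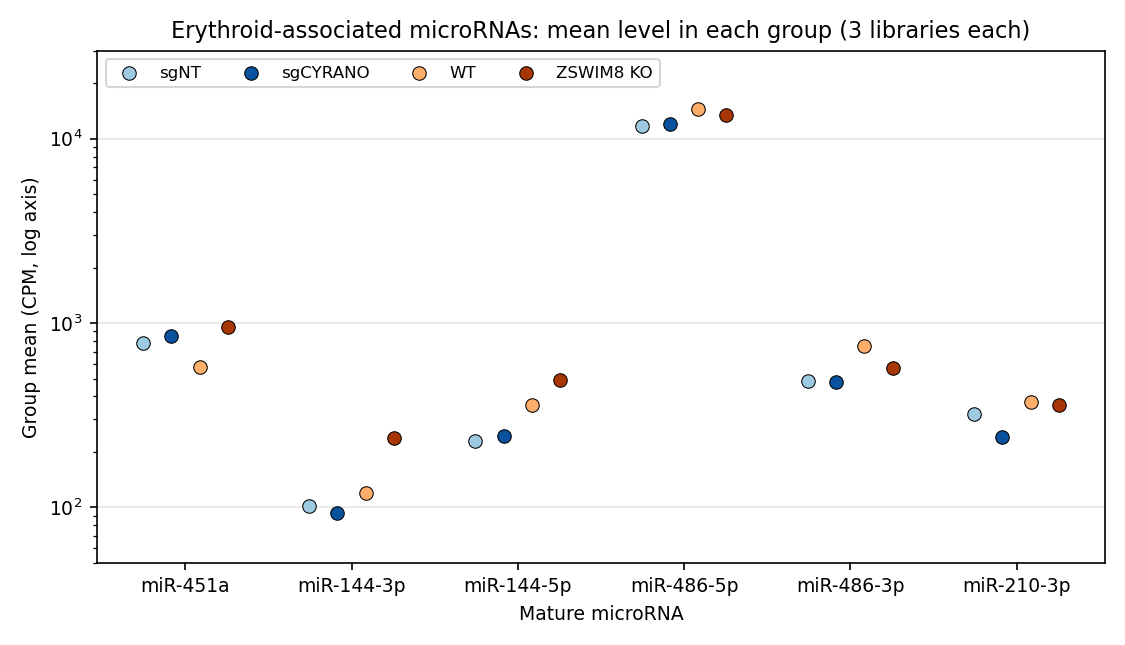
Group mean of each strand in CPM, on a log axis, with 1 point per group of 3 libraries and no error bars because the tables hold no single-library values. MiR-486-5p lies between 11701 and 14449 CPM, and the other 5 strands lie between 93.4 and 956.3 CPM.

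The order of the levels was miR-486-5p, miR-451a, miR-486-3p, miR-210-3p, miR-144-5p and miR-144-3p in sgNT. Neighbours in that order were compared with an error of each group mean taken as the error of the fold change over the square root of 2, which assumes equal spread in both groups. In sgNT each neighbour was more than 2 such errors from the next. In sgCYRANO miR-144-5p and miR-210-3p were 0.23 errors apart, and the other neighbours more than 2. In WT miR-486-3p and miR-451a (0.98 errors), miR-451a and miR-210-3p (1.59) and miR-210-3p and miR-144-5p (0.19) could not be ordered. In ZSWIM8 KO miR-486-5p and miR-451a were the 1 pair of neighbours more than 2 errors apart. Levels of different microRNAs also carry the ligation preference of the library kit for each sequence, so this order is one of reads.

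Disruption of CYRANO was asked to show which microRNAs respond besides its known substrate. None of the 6 strands passed an adjusted p of 0.05 in sgCYRANO (0 of 6, edgeR quasi-likelihood test), where 0.119% of all 837 microRNAs did. The share of all microRNAs at an unadjusted p under 0.05 was not counted, here or for the lists below. At that threshold the count was 1 of 6. That strand was miR-210-3p, at a log2 fold change of -0.42 ± 0.12 in the authors' deposited table, or 0.749 times the sgNT level (95% interval 0.640 to 0.877). Its p, 0.000335 in the authors' deposited table, was the second smallest of the 837, and its adjusted p was 0.140 by edgeR's quasi-likelihood test. The adjusted p was 0.0501 when edgeR's p-values were adjusted over microRNAs at 10 CPM or more alone. It was 0.975 when the deposited F was read with 4 denominator degrees of freedom. The opposite strand of its hairpin, miR-210-5p, had 0.708 CPM in sgNT and 0.736 in sgCYRANO, too few reads to compare.

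The strands of the chromosome 17 transcript and of miR-486 had narrow intervals around no change in sgCYRANO. MiR-451a had a log2 fold change of 0.13 ± 0.10 in the authors' deposited table, with a 95% interval from -0.07 to 0.33. MiR-144-5p had 0.09 ± 0.12 and miR-144-3p -0.12 ± 0.15 in the authors' deposited table. In the authors' deposited table miR-486-5p had 0.04 ± 0.08 and miR-486-3p -0.01 ± 0.11, where centring on the median or a trimmed mean turns the sign of the latter. For these 5 strands the 95% intervals reached at most 1.26-fold upwards, for miR-451a, and 0.754-fold downwards, for miR-144-3p. The widths of these intervals rest mostly on the variance of other microRNAs.

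Loss of ZSWIM8 was asked to show which microRNAs this ubiquitin ligase receptor keeps low. In ZSWIM8 KO 1 of the 6 strands fell and the other 5 did not pass. Of all 868 microRNAs, 9.91% passed, 5.18% in the lower direction and 4.72% in the higher. The strand that fell was miR-486-3p, with a log2 fold change of -0.40 ± 0.14 in the authors' deposited table, or 0.759 times its WT level (adjusted p = 0.0427, edgeR quasi-likelihood test). Its adjusted p was 0.436 when the deposited F was read with 4 denominator degrees of freedom. Over the microRNAs with a mean of at least 10 CPM the fold changes of this table had a median of 0.13 on the log2 scale, and relative to that median the fall of miR-486-3p was -0.53 (adjusted p = 0.00309, edgeR statistics re-centred).

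The 3 strands of the chromosome 17 transcript had higher means in ZSWIM8 KO than in WT, and none passed the test. MiR-144-3p, from 119.4 to 239.1 CPM, had a log2 fold change of 1.0 ± 0.60 in the authors' deposited table (adjusted p = 0.364, edgeR). Its 95% interval ran from 0.833-fold to 4.80-fold. MiR-451a, from 574.5 to 956.3 CPM, had 0.74 ± 0.62 in the authors' deposited table (adjusted p = 0.583, edgeR), with an interval from 0.615-fold to 4.51-fold. MiR-144-5p, from 360.1 to 492.4 CPM, had 0.45 ± 0.41 in the authors' deposited table (adjusted p = 0.612, edgeR), with an interval from 0.696-fold to 2.69-fold. These intervals hold both no change and a rise of more than 2-fold. Relative to the median, the log2 fold changes were 0.87 for miR-144-3p, 0.61 for miR-451a and 0.32 for miR-144-5p.

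MiR-486-5p had -0.11 ± 0.22 in the authors' deposited table, an interval from 0.641-fold to 1.34-fold, although it was read more often than the other 5 strands. MiR-210-3p had -0.06 ± 0.14 in the authors' deposited table, an interval from 0.788-fold to 1.16-fold. In bulk cultures, fewer cells that express a microRNA and less of it per cell cannot be told apart.

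**Figure D2:**
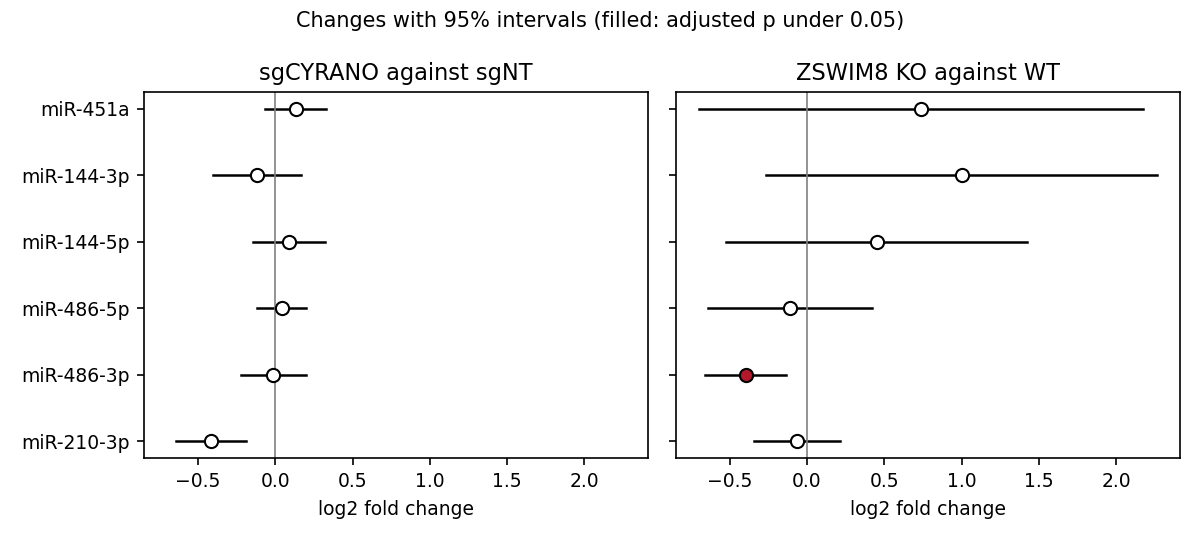
Log2 fold change of each strand in both comparisons, with 95% intervals from the deposited F and the degrees of freedom it implies, and filled points for an adjusted p under 0.05. The 1 filled point is miR-486-3p in ZSWIM8 KO. The intervals of all 6 strands are wider in the ZSWIM8 KO panel than in the sgCYRANO panel, most so for miR-451a, miR-144-3p, miR-144-5p and miR-486-5p.

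The widths of those intervals were read against other microRNAs. The standard error from the deposited F was 0.53 for miR-451a, where the running median of 51 microRNAs of like abundance was 0.12, a ratio of 4.43. The ratio was 2.72 for miR-144-3p, 2.61 for miR-144-5p and 2.09 for miR-486-5p, but 1.04 for miR-486-3p and 0.990 for miR-210-3p. The mean levels of miR-486-3p (657.6 CPM) and miR-210-3p (365.4 CPM) lie within the range of the other 4, 179.3 to 13918 CPM. Over the 304 microRNAs at 10 CPM or more in this table, 7.24% had a ratio of 2 or more, against 4 of these 6. That share includes the 4, and miR-451a and both miR-144 strands come from the same transcript, so the 4 are not independent. The count of 4 depends on the window, since a wider running median put miR-486-5p just under 2, at 1.98. At rank 15 by level, either window is cut at the top for this strand. It then holds more microRNAs below its level than above, so its ratio is less exact. The strands of the chromosome 17 transcript stayed above 2 with it (miR-451a 4.39, miR-144-3p 2.69, miR-144-5p 2.56).

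The degrees of freedom that F and p together imply divided the strands in the same way. They come from the same F as the ratios, so this is not separate evidence. They were 4.33 for miR-451a, 4.37 for miR-144-3p, 4.40 for miR-144-5p and 4.56 for miR-486-5p, close to the 4 that 6 libraries in 2 groups leave over. The value was 55.0 for miR-486-3p and 164.1 for miR-210-3p, and 164.1 was also the most frequent in the table. At 10 CPM or more, 23 of 304 microRNAs (7.57%) had fewer than 10, 4 of them among the 6 strands, as did 8.06% of all microRNAs in the table. For the 4 among the 6 strands, the deposited test took its variance almost wholly from the spread of that strand over its own 6 libraries, and little from other microRNAs. None of the 23 passed an adjusted p of 0.05 (edgeR, 5 at an unadjusted p under 0.05), while 24.9% of the remaining microRNAs above that level did. Few degrees of freedom make the threshold harder to reach, so this contrast follows in part from how the 23 were picked. Among the 23 were 7 strands of the large microRNA cluster on chromosome 19, a group chosen after its values were seen.

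The read numbers set a lower limit on these errors. From the library totals, the counting error alone of the log2 fold change was 0.04 for miR-451a, 0.08 for miR-144-3p, 0.05 for miR-144-5p and 0.0080 for miR-486-5p. These cover sampling of reads, which without molecular identifiers are not independent molecules. The tables do not show which libraries were high or low, nor whether the spread lay in WT, in ZSWIM8 KO or in both. Whether the 4 strands were high in the same libraries cannot be read from them either.

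The fit of the sgNT and sgCYRANO table gave none of the 6 strands such a large error. Error ratios of the 6 strands lay between 0.934 and 1.0 there, with implied degrees of freedom of 894.6 or more. At such values the error is taken almost wholly from other microRNAs, so these ratios do not measure the spread of the strands themselves. That table also gave some microRNAs an error of their own, since 6 of its microRNAs at 10 CPM or more had a ratio of 2 or more, up to 6.11, but none of these 6 strands was among them.

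**Figure D3:**
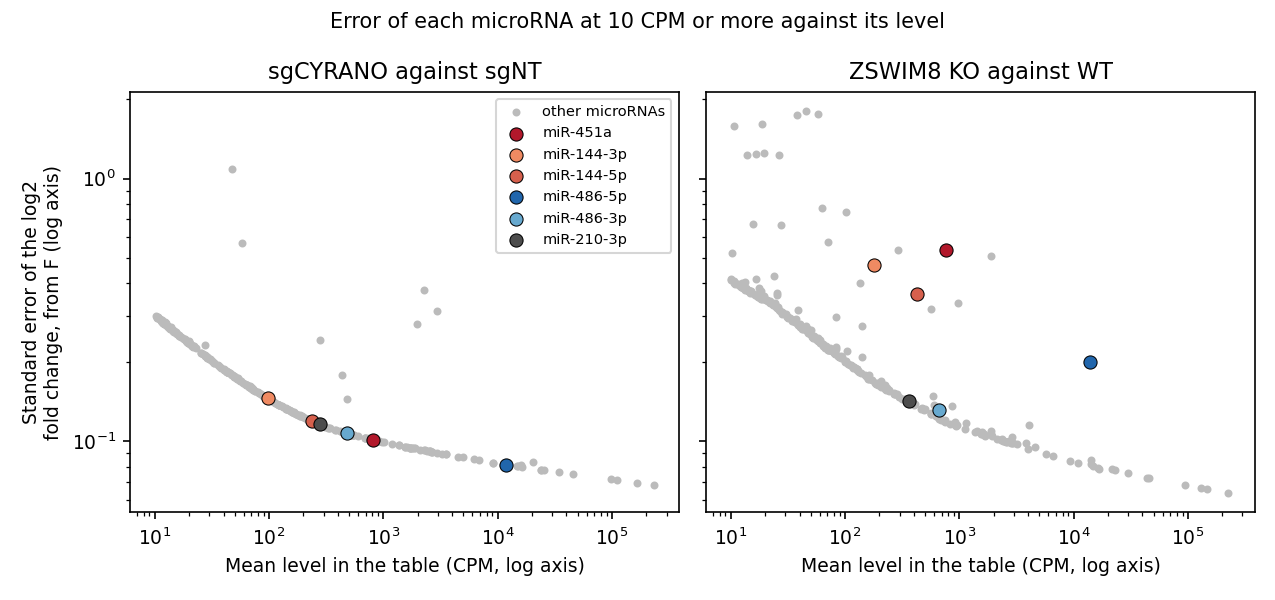
Standard error of the log2 fold change from the deposited F against mean level, both on log axes, for microRNAs at 10 CPM or more. In sgCYRANO against sgNT all 6 strands lie on the curve of the other microRNAs, and in ZSWIM8 KO against WT miR-451a, miR-144-3p, miR-144-5p and miR-486-5p lie above it, with ratios of 2.09 to 4.43.

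The test was repeated with another error. With the error of microRNAs of like abundance in place of their own, an alternative chosen after seeing the data, miR-451a (adjusted p = 3.46e-08), miR-144-3p (adjusted p = 2.25e-07) and miR-144-5p (adjusted p = 0.0117) would have passed as higher in ZSWIM8 KO by a normal test on edgeR's fold changes. That setting leaves out the spread these strands showed. MiR-486-5p did not pass under it (adjusted p = 0.565), and miR-486-3p passed with either error (adjusted p = 0.0166, normal test on edgeR's fold changes). In sgCYRANO miR-210-3p had an adjusted p of 0.0454 under the same normal test, although the error put in place (0.117) was not smaller than its own (0.116). The setting also changes the reference distribution, though little for miR-210-3p at 3347.9 implied degrees of freedom. It changes the other p-values in the adjustment too, and these changes were not separated.

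The 2 strands of a hairpin arise together, so their ratio was followed across the groups. There were 2.27 reads of miR-144-5p per read of miR-144-3p in sgNT and 2.62 in sgCYRANO, against 3.01 in WT and 2.06 in ZSWIM8 KO. For miR-486 the 5p strand had 24.3, 25.2, 19.3 and 23.6 reads per read of the 3p strand, in the same order. The 5p strand of miR-144 changed by -0.55 ± 0.73 against its 3p strand in ZSWIM8 KO on the log2 scale, and that of miR-486 by 0.29 ± 0.26 (adjusted p = 0.949 and 0.908 over 188 hairpins, normal test of the difference of edgeR's fold changes, 3.72% of hairpins passed). In sgCYRANO the differences were 0.21 ± 0.19 and 0.05 ± 0.13 (adjusted p = 0.966 and 0.988 over 180 hairpins by the same normal test, of which 0% passed and 6 had an unadjusted p under 0.05). The test treats both strands as independent, so strands that vary together over libraries get too wide an error. The fall of miR-486-3p was therefore not shown to differ from the change of miR-486-5p.

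MiR-451a and the miR-144 strands come from 1 transcript, yet their ratio differed between the pairs of groups. There were 7.63 reads of miR-451a per read of miR-144-3p in sgNT and 9.09 in sgCYRANO, against 4.81 in WT and 4.0 in ZSWIM8 KO. Against miR-144-5p the ratios were 3.36, 3.46, 1.60 and 1.94. The step between the pairs of groups was not tested, since the tables were fitted separately. A neighbour in that transcript, miR-4732-3p, had 0.145 and 0.948 CPM in sgNT and sgCYRANO and 0.180 and 1.12 CPM in WT and ZSWIM8 KO, where 3 reads over the group correspond to 0.547, 0.567, 0.788 and 0.425 CPM, so both control means lie under that limit.

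The 2 comparisons share no libraries, and their fold changes were compared strand by strand. The change in ZSWIM8 KO minus that in sgCYRANO was 1.12 ± 0.62 on the log2 scale for miR-144-3p, 0.60 ± 0.63 for miR-451a and 0.36 ± 0.43 for miR-144-5p. It was -0.15 ± 0.23 for miR-486-5p, -0.39 ± 0.17 for miR-486-3p and 0.35 ± 0.18 for miR-210-3p. None of the 6 passed (adjusted p of 0.213 to 0.848 over 753 microRNAs, normal test on edgeR's fold changes), where 6.64% of microRNAs did, and the unadjusted p was under 0.05 for miR-486-3p alone. With each table centred on its median, miR-486-3p passed (-0.54, adjusted p = 0.0330 by the same normal test).

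**Figure D4:**
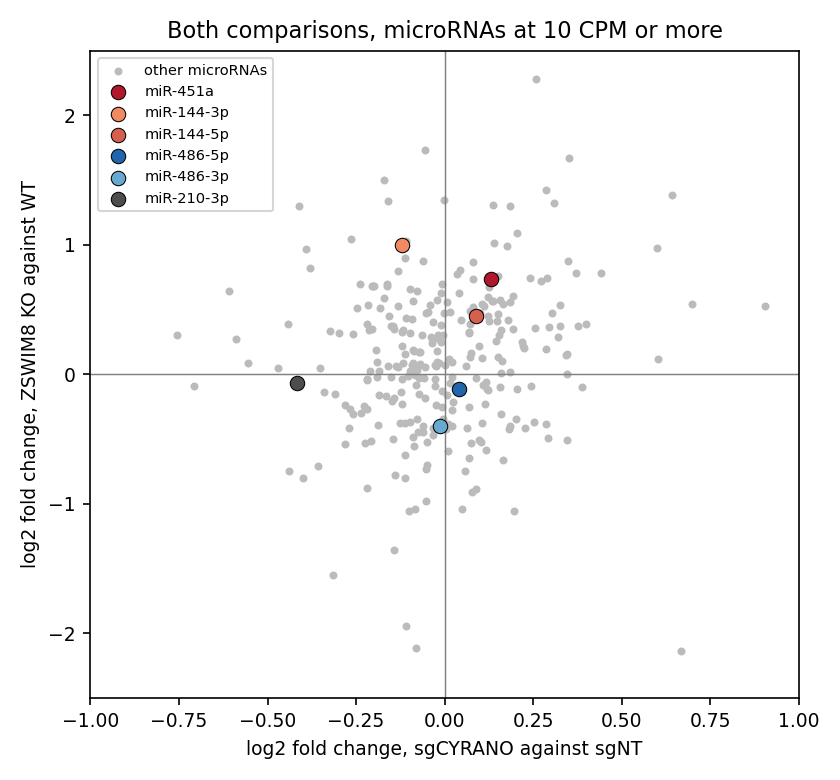
Log2 fold change in ZSWIM8 KO against that in sgCYRANO for the 294 microRNAs at 10 CPM or more in both tables, of which 3 fall outside the plotted range. The miR-144 strands and miR-451a lie above the horizontal line, miR-486-3p below it, and miR-210-3p to the left.

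Likeness of pattern was measured as the distance between pairs of log2 fold changes over the 2 comparisons, among those 294 microRNAs, without regard to their errors. Nearest to miR-451a were miR-30a-5p (distance 0.03) and miR-340-5p (0.05), and to miR-144-3p miR-574-3p (0.03) and miR-450a-5p (0.10). Nearest to miR-144-5p were miR-877-3p (0.03) and miR-151a-3p (0.03), and to miR-486-5p miR-200c-3p (0.01) and miR-941 (0.01). Those nearest to miR-486-3p were let-7a-3p (0.03) and miR-3173-5p (0.03), and to miR-210-3p miR-769-5p (0.11) and miR-499a-5p (0.13). No strand of the 6 was among the nearest 2 of another.

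The strands that share bases 2 to 7 with members gave the following values. MiR-101-3p, which targets the histone methyltransferase EZH2, had 2550 CPM in sgNT and 2100 in sgCYRANO, and 2322 CPM in WT and 1974.5 in ZSWIM8 KO. Its log2 fold changes were -0.28 ± 0.09 and -0.23 ± 0.10 in the authors' deposited tables, neither past the threshold. MiR-147b-3p had 4.72 CPM in sgNT and 5.09 in sgCYRANO, and 5.76 CPM in WT and 4.2 in ZSWIM8 KO.

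Other microRNAs linked to red cells or abundant in them were taken as a list of 17, of which 16 were measured in each table. In sgCYRANO 0 of 16 passed (edgeR quasi-likelihood test, 3 at an unadjusted p under 0.05), with a median log2 fold change of -0.05 against 0.01 over all microRNAs. In ZSWIM8 KO 3 rose and 6 fell, with a median of -0.16 against 0.08 over all microRNAs, where 9.91% of all microRNAs passed, and 102 of 304 at 10 CPM or more when adjusted over those alone. Relative to the median 2 rose and 8 fell, and with 4 denominator degrees of freedom none did. Of its 4 most abundant members, miR-92a-3p (-0.24 ± 0.07) and miR-25-3p (-0.23 ± 0.08) fell in ZSWIM8 KO in the authors' deposited table. The other two, miR-20a-5p (-0.09 ± 0.08) and miR-191-5p (0.02 ± 0.08), did not pass in the authors' deposited table. The 3 that rose were miR-24-3p (0.56 ± 0.11), miR-185-5p (0.48 ± 0.10) and miR-22-3p (0.28 ± 0.10) in the authors' deposited table, the last of which did not pass relative to the median. Further falls, named after their values were seen, were those of the co-transcribed miR-182-5p (-1.04 ± 0.12), miR-183-5p (-0.75 ± 0.11) and miR-96-5p (-1.05 ± 0.14) in the authors' deposited table. The lowest error ratio among the 16 in that table was 0.800, for the abundant miR-92a-3p, where the window is cut at the top. The highest was 1.05, for miR-24-3p.

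MiR-221-3p and miR-222-3p repress the stem cell factor receptor KIT and fall as red cells mature. Both fell in ZSWIM8 KO, from 159.8 to 5.76 and from 270.7 to 9.10 CPM. The log2 fold changes were -4.76 ± 0.48 and -4.88 ± 0.58 in the authors' deposited table. That is 2 of 2, where 9.91% of all microRNAs passed. Neither passed in sgCYRANO (edgeR, 1 at an unadjusted p under 0.05). A link between these falls and red-cell maturation was not tested. Of 14 hypoxia-linked microRNAs besides miR-210-3p, 8 were measured with sgCYRANO and 7 with ZSWIM8 KO. None of the 8 passed in sgCYRANO (edgeR, 1 at an unadjusted p under 0.05), and in ZSWIM8 KO miR-24-3p rose (0.56 ± 0.11) and miR-21-5p fell (-0.38 ± 0.07) in the authors' deposited table. These are 2 of 7, where 9.91% of all microRNAs passed, and neither passed with 4 denominator degrees of freedom.

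Markers of other cells were read beside these values. The megakaryocytic list (4 of 5 measured), led by miR-126-3p, summed to 62642, 59656, 65526 and 72191.5 CPM in sgNT, sgCYRANO, WT and ZSWIM8 KO. The myeloid pair summed to between 2963 and 3556 CPM and the lymphoid list (4 and 3 of 5 measured) to between 3441 and 3773 CPM. None of the 4 measured megakaryocytic strands passed in either comparison (edgeR). In ZSWIM8 KO the myeloid miR-223-5p fell (-0.38 ± 0.10) and the lymphoid miR-342-3p rose (0.80 ± 0.19) in the authors' deposited table. The other 3 measured members of the myeloid and lymphoid lists did not pass. That is 1 of 2 and 1 of 3, where 9.91% of all microRNAs passed. Of microRNAs at 10 CPM or more, 102 of 304 passed when adjusted over those alone. Muscle (1 of 3) and endothelial or fibroblast markers (2 of 3) summed to at most 1.31 and 31.1 CPM. The liver list, abundant in serum (3 of 3), went from 2132 to 2622 CPM between WT and ZSWIM8 KO with 0 of 3 passing (edgeR, 2 at an unadjusted p under 0.05), and miR-122-5p, which defines it, from 0.954 to 1.55 CPM. The part of these markers in the levels of miR-451a and miR-144 was not tested.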

How the data were processed

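The members and lists were chosen with earlier results of these data known. Tools listed in the submitters' processing notes, without roles, are edgeR, featureCounts, STAR, FastQC 0.11.2 and bcl2fastq, and the build is hg19. Per the file headers, the deposited tables, filtered on low values by their name, hold log2 values (a fold change and a mean CPM), an F statistic (used as a score), a p-value and an adjusted p-value from the authors. The deposited adjusted p-values were recovered to within 1.09e-06 by Benjamini-Hochberg adjustment of the whole table. Group means were recovered with prior counts of 2 (mean) and 0.125 (fold change), and summed to 1000000 CPM in each group. Depth came from 3 step sizes per group, which explained 152 of 152, 131 of 131, 172 of 172 and 157 of 157 group means under 0.7 CPM within 0.0015 CPM (sgNT, sgCYRANO, WT, ZSWIM8 KO). Library totals cannot be tied to replicate numbers.

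Standard errors divide the log2 fold change by the normal deviate that the deposited p corresponds to. Intervals used the error from F and the degrees of freedom that F and p imply. Differences between hairpin arms and between comparisons used summed squared errors and a normal reference, adjusted over all hairpins or microRNAs. Low values were not filtered further. Ratios of errors used a running median over all microRNAs of a comparison, and were counted over those at 10 CPM or more. Named microRNAs were the 6 strands, their locus neighbours, microRNAs sharing a seed, the 2 with the nearest pair of fold changes, and up to 4 of the most abundant per list, with further ones where said. The seed set was widened to bases 2 to 7 after no match was found for bases 2 to 8. The procedures (Python 3.11.15, scipy 1.17.1) were tested on simulated data. Alternatives were a level filter, centring on the median or a trimmed mean, F with 4 degrees of freedom, other errors and a wider running median.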

Additional observations from a re-analysis of the deposited data

How the results depend on the processing

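Of 60 values of the 6 strands under 5 alternatives in each comparison, 53 kept their direction and side of the threshold. The sign of miR-486-3p in sgCYRANO turned, to 0.00996 with centring on the median and 0.00517 on a trimmed mean, from -0.01, and the cause is the shift itself. Its fall in ZSWIM8 KO was lost with 4 denominator degrees of freedom, and 4 values passed only with errors of like-abundance microRNAs. The number of microRNAs called in ZSWIM8 KO went from 86 to 3 with 4 denominator degrees of freedom, and in sgCYRANO from 1 to 7 with errors of like-abundance microRNAs. Hairpins called in sgCYRANO went from 0 to 1 with errors from F, and to 1 with both arms at 10 CPM or more. Relative to the median, 30 microRNAs were higher and 62 lower in ZSWIM8 KO, against 41 and 45 as deposited. Depth limits miR-4732 and miR-210-5p, which had fewer than 10 reads in each group. No paired analysis was possible because the tables hold no values of single libraries, and for the same reason no replicate could be left out.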
